A study of Mus musculus with 59 samples.

Results

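The genes described here lie on the distal part of mouse chromosome 11, between Myo19 and Tbcd, and are 45 listed genes of that interval. They were chosen by measured values: in earlier results from these same arrays, genes of the interval stood high in 3 induced pluripotent stem cell (iPSC) clones, iPSC-2, iPSC-34 and iPSC-46. The deviation of these 3 clones from the other clones of their groups is therefore given as a description, with no test. Of the 45 genes, 42 were measured by a probe set assigned to that gene alone, out of 11807 genes measured in all. Cltc, Msi2 and Lrrc59 were not analysed here. The interval holds 406 further measured genes, chromosome 11 outside it 545, and the other chromosomes 10795. All 42 members mapped to chromosome 11. In the order of its 534 genes with a mean log2 value above 0, Myo19 is number 306 and Tbcd number 534, the last.

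Each of 59 mouse lines was measured on 1 expression array. The iPSC came from somatic cells of chimeric mice made with embryonic stem cells (ESC) that carry an inducible cassette of myc, Klf4, Oct4 and Sox2. The groups are 4 clones of targeted KH2 ESC and 6 iPSC clones from mouse embryonic fibroblasts (MEFs) of chimera 1. The clones of mouse 1 came from haematopoietic stem cells (HSCs, 4 clones), granulocyte-macrophage progenitors (GMPs, 4), granulocytes (3) and cells labelled PFs (2). Those of mouse 2 came from the same sources with 4, 4, 3 and 3 clones. Chimera 2 gave 3 clones each from HSCs, GMPs and granulocytes and 6 from cells labelled TTFs. PFs and TTFs are counted below as fibroblast origin. A single Adeno-iPSC line of fetal liver origin, Adeno-2, was the donor of 3 ESC subclones made by nuclear transfer from cloned blastocysts (NT-ESC: NT-4, NT-5 and NT-6). Further NT-ESC came from iPSC-7 (NT-7) and iPSC-15 (NT-8 and NT-9). All lines grew with serum and LIF on irradiated MEFs, which were reduced by preplating for 45 minutes before RNA was taken. Ages of the animals are not given, and each line has 1 array, so the spread of a group is the spread between its clones. DNA copy number was not analysed here.

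A cell with an additional copy of a chromosome, or of part of one, usually carries more RNA of most genes on it, because each copy is transcribed. Single genes can depart from this where feedback, limiting transcription factors or RNA turnover set their level. Mouse pluripotent cells are known to gain chromosomes or chromosome parts in culture, and the distal part of chromosome 11 is among the known recurrent gains. KH2 cells were built to accept a transgene beside Col1a1, a collagen gene that itself lies in the interval. With 3 copies in place of 2, an RNA level that follows the copies would stand 0.585 higher on the log2 scale. That value is given only as a ruler, since signals of arrays can understate ratios.

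The promoters of 4 members are shown as examples of the contrast that follows. Stat5b and Tbcd passed 0.3 log2 units above their group in all 3 clones, whereas Jup and Tk1 did so in none. Each run holds the 250 bases before the gene's start, 5′ to 3′ on the gene's strand, from RefSeq on build GRCm38.p6. Capitals mark 3 motifs, each searched on both strands. The GC box was searched as the letters GGGCGG. The second motif was CCAAT, known as the CCAAT box. The TATA box was searched as the letters TATAAA. The windows are chr11:100850582-100850831 on the minus strand for Stat5b, where the first of 2 listed starts was used, and chr11:121451741-121451990 on the plus strand for Tbcd. Jup is at chr11:100397791-100398040 and Tk1 at chr11:117826015-117826264, both on the minus strand.
Stat5b: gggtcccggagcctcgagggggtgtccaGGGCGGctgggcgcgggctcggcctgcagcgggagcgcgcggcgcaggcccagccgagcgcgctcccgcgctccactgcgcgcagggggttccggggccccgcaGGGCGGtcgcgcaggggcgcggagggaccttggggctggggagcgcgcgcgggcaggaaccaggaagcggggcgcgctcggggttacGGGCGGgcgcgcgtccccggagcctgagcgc
Tbcd: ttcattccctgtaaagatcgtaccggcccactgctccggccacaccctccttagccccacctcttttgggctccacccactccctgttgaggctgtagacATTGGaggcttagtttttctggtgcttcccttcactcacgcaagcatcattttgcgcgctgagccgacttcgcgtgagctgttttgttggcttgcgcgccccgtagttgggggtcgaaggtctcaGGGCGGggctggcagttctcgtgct
Jup: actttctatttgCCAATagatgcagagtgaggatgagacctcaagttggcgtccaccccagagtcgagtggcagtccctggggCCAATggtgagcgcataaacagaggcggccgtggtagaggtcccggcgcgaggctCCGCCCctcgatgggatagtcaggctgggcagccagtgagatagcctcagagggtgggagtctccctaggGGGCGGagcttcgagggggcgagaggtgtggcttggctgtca
Tk1: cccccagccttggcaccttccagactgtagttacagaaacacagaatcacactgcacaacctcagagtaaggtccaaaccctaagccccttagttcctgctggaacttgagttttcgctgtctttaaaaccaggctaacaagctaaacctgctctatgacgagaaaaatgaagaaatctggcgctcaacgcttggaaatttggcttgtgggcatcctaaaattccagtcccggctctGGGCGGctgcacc

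The Stat5b window held 3 GC boxes, 40 CpG sites and 82.0% G and C. Tbcd had 1 GC box and 1 CCAAT box at 58.4% G and C, Jup had 2 of each at 62.0%, and Tk1 had 1 GC box at 49.6%. None of the 4 windows held TATAAA. A promoter entry was found for 39 of the 42 members. A GC box stood in 64.1% of them, against 52.5% of the 9425 measured genes with an entry and 32.9% of all 27025 genes of the table. A CCAAT box stood in 53.8%, 36.1% and 34.5% of these sets, and TATAAA in 12.8%, 9.6% and 13.0%. A match is a description of letters only.

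In iPSC-2, most of the 42 members stood above the other MEF-derived clones, typically by less than a 3-to-2 ratio. Each value below is the clone's log2 signal minus the mean of the other lines of its group, here called its deviation. In iPSC-2, set against 5 other clones, the members' median deviation was 0.29, or 1.22-fold, and 39 of 42 lay above 0. Of these, 21 passed 0.3 log2 units upward, where 10.3% of all genes did, and none passed it downward, where 7.89% did. These counts come from the contrast the members were chosen on, so nothing is read from them. The level of 32 members in iPSC-2 was above that in all 5 other clones, as was that of 17.8% of all genes and of 64.1% of the other interval genes with a mean above 0.

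In iPSC-34, set against only iPSC-32 and iPSC-33, the median deviation was 0.19 (1.14-fold) and 37 of 42 lay above 0. There 13 members passed 0.3 upward, where 17.8% of all genes did. Only 1, Akap1 by its brightest probe set, passed it downward, where 14.2% of all genes did. The reference lines also differed from each other: the pluripotency gene Pou5f1 had a log2 signal of 0.28 in iPSC-32, against 4.06 in iPSC-34 and 4.28 in iPSC-33. For Sox2 and Nanog the reference lines differed less, at 4.04 to 4.24 and 4.77 to 5.17, both above iPSC-34 at 3.73 and 4.72. Left out in turn, these reference lines gave medians of 0.20 and 0.21, as large as with both.

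In iPSC-46, set against 5 other TTF-derived clones, the median deviation was 0.23 (1.17-fold) and 37 of 42 lay above 0. There 19 members passed 0.3 upward, where 14.5% of all genes did, and none passed it downward, where 10.7% did. Few members reached the 0.585 of a 3-to-2 ratio: 3 did in iPSC-2 (Stat5b, Erbb2 and Nfe2l1), 3 in iPSC-34 (Stat5b, Foxk2 and Smarce1) and 2 in iPSC-46 (Stat5b and Tbcd). Stat5b was the single member that did so in every clone. These counts rest on the brightest probe set, and the share of all genes past 0.585 was not computed, so nothing is read from them.

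**Figure D1:**
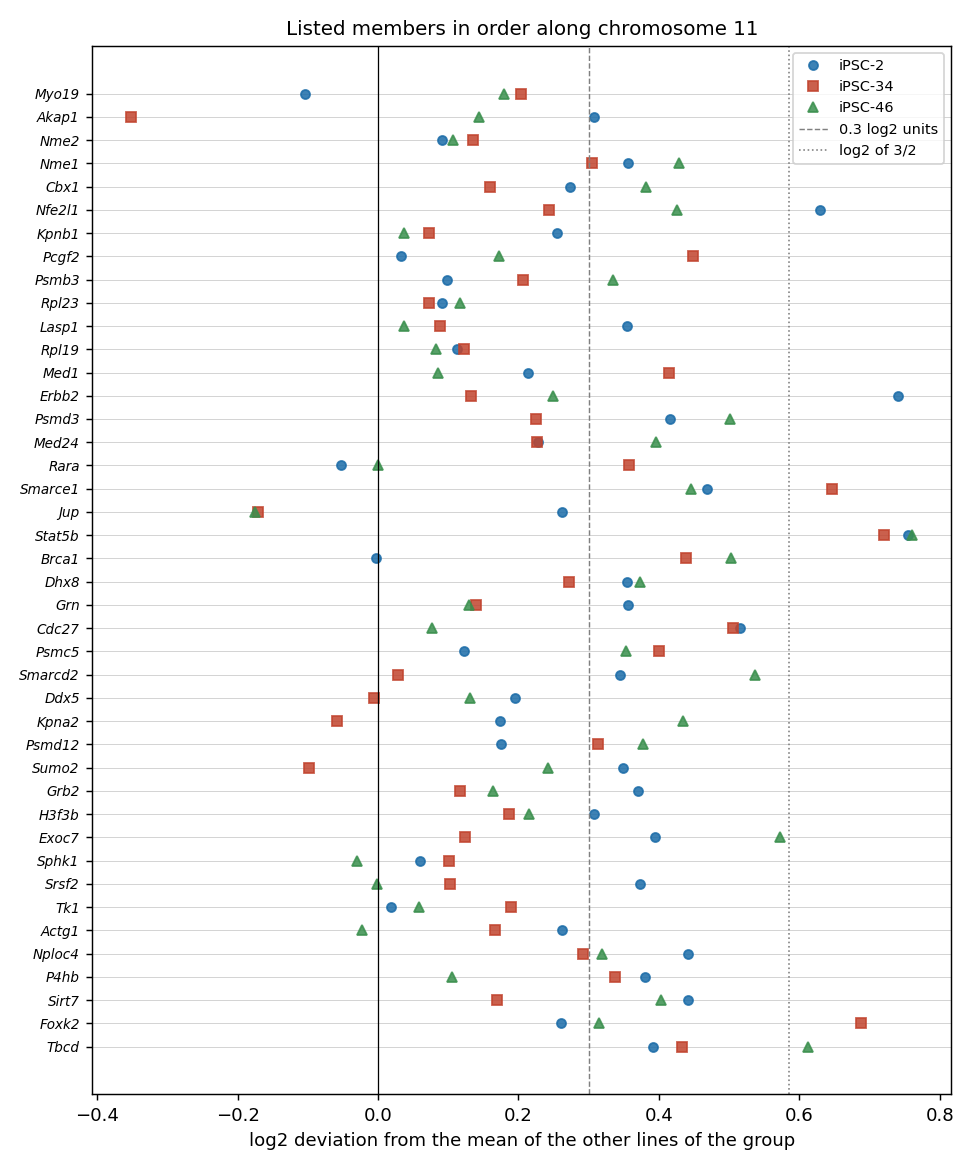
Log2 deviation of each of the 42 members from the mean of the other lines of the clone's group, in the order of the genes along the chromosome, with circles for iPSC-2, squares for iPSC-34 and triangles for iPSC-46. Most symbols lie between 0 and the dotted line at 0.585; Stat5b lies beyond it in all 3 clones, and Akap1 has the lowest value, -0.35 in iPSC-34.

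How the listed members compare with their neighbours depended on which neighbours were counted. All 406 other genes of the interval had median deviations of 0.17 in iPSC-2, 0.28 in iPSC-34 and 0.22 in iPSC-46, below the members' median in iPSC-2, above it in iPSC-34 and close to it in iPSC-46. Among genes with a mean above 0, the 192 others had 0.33, 0.32 and 0.38, and the 37 members 0.26, 0.19 and 0.22. For all genes of other chromosomes the medians were -0.02, -0.01 and 0.00. For those with a mean above 0 they were -0.03, -0.08 and 0.01. The rest of chromosome 11 separated the clones: over all its genes the median was -0.04 in iPSC-2 and 0.00 in iPSC-46, but 0.27 in iPSC-34. Among its genes with a mean above 0 it was -0.05 in iPSC-2, 0.01 in iPSC-46 and 0.29 in iPSC-34. The members are thus raised within a raised distal part in 2 clones and within a raised whole chromosome in the third.

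Genes taken in order showed where the shift begins. Over the 534 genes, the single split that left the least squared deviation fell in iPSC-2 between Dhx40 and Gdpd1, 7 genes after Myo19. The median was -0.05 before it and 0.32 after it, and it accounted for 34.7% of the squares. In iPSC-46 the split fell between Nlk and Ccnq, 20 genes before Myo19, with medians of 0.00 and 0.37. With genes of a mean above 1 alone, the split of iPSC-46 moved to between Wsb1 and Utp6, and that of iPSC-2 stayed. In iPSC-34 the best split accounted for 1.4% of the squares, and windows of 25 genes along the chromosome had medians between 0.21 and 0.39. The last window, of 9 genes, had 0.47.

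Between the splits of iPSC-2 and iPSC-46 lie 27 genes. Both splits were fitted to these same deviations, so a lower median in iPSC-2 than in iPSC-46 is built in there. The median deviation of the 27 genes was -0.09 in iPSC-2, 0.27 in iPSC-34 and 0.41 in iPSC-46. Myo19, a mitochondrial myosin, is the single member in that stretch, with -0.10, 0.20 and 0.18. Its neighbours Aatf, Mrm1 and Ggnbp2 had -0.38, -0.05 and -0.09 in iPSC-2 but 0.39, 0.80 and 0.31 in iPSC-46. Without Myo19, the median of the other 41 members was 0.31, 0.19 and 0.24. After Tbcd no gene with a mean above 0 follows, so the shift ran to the end of the measured chromosome in each clone.

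**Figure D2:**
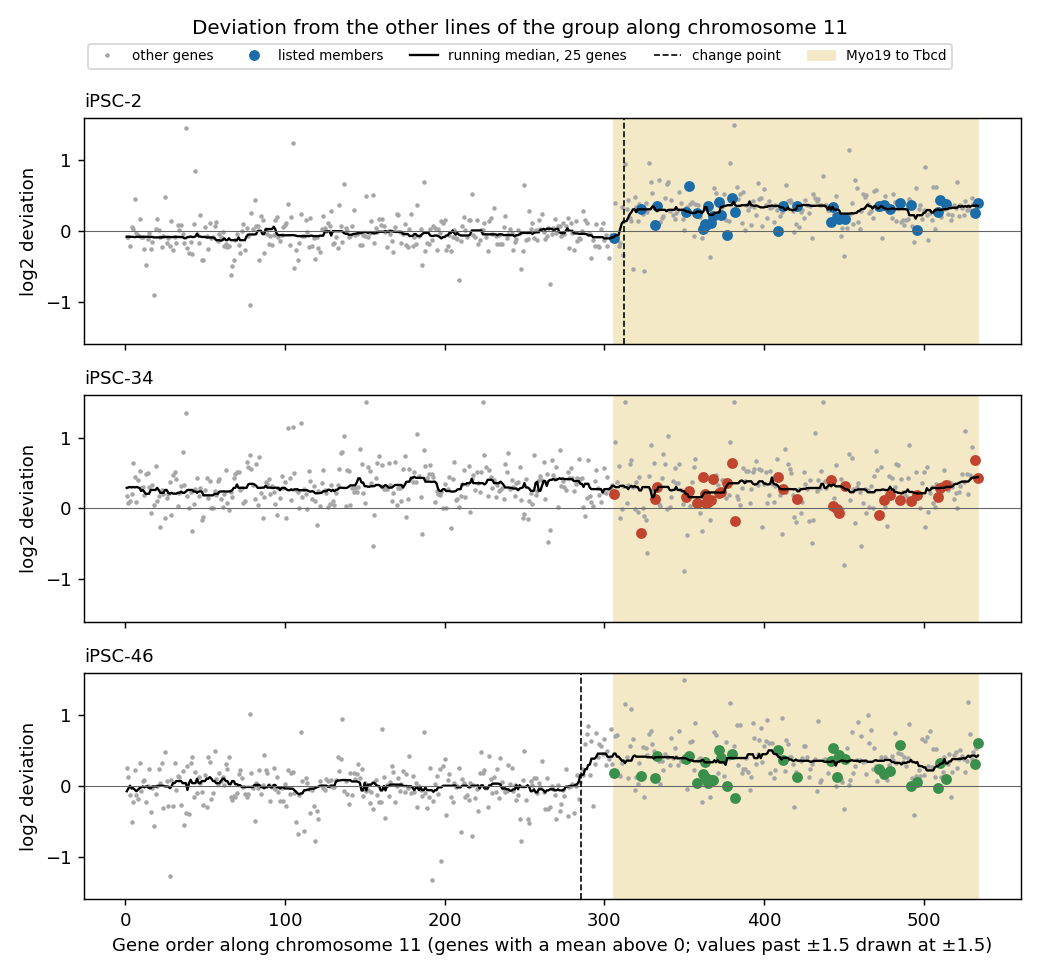
Log2 deviation of 534 genes in their order along chromosome 11 for iPSC-2, iPSC-34 and iPSC-46, with the 37 members among them in colour, a running median over 25 genes, the stretch from Myo19 to Tbcd shaded and the split dashed. The running median leaves 0 near gene 313 in iPSC-2 and near gene 286 in iPSC-46, and lies above 0 along the whole chromosome in iPSC-34.

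Among signalling genes, Stat5b, a transcription factor switched on by cytokine and hormone receptors, had the largest median deviation. Its log2 signal was 0.72 in iPSC-2, while the 5 other MEF-derived clones ran from -0.34 to 0.31 with a median of -0.19. In the PF-derived clones of mouse 2 it was -1.20 in iPSC-32, -1.21 in iPSC-33 and -0.48 in iPSC-34. In iPSC-46 it was -0.30, and the 5 other TTF-derived clones ran from -1.36 to -0.72 with a median of -1.03. Each of the 3 clones lay above all others of its group, by deviations of 0.76, 0.72 and 0.76. The second, dimmer Stat5b probe set, with a mean of -3.42 over all lines, gave 0.19, 0.15 and 0.02. The level also varied between groups: ESC ran from -0.56 to 0.21, and HSC-derived clones of mouse 1 from -0.86 to -0.71.

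Grb2, an adaptor that links growth factor receptors to Ras, was above all others of its group in iPSC-2 and iPSC-46. It had 3.40 in iPSC-2, against 2.91 to 3.19 in the 5 others with a median of 3.06. The PF-derived clones iPSC-32, iPSC-33 and iPSC-34 had 3.21, 2.94 and 3.20. In iPSC-46 it was 3.15, against 2.93 to 3.07 with a median of 2.97. Grb2 in iPSC-34 therefore overlapped its group, and deviations were 0.37, 0.12 and 0.16. The second Grb2 probe set gave 0.45, -0.05 and 0.405. Erbb2, a receptor tyrosine kinase, had its largest deviation in iPSC-2, with deviations of 0.74, 0.13 and 0.25.

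Rara, the retinoic acid receptor alpha, did not stand apart in iPSC-2 or iPSC-46. It had 0.11 in iPSC-2 among others from 0.03 to 0.25 (median 0.18), and 0.11 in iPSC-46 among others from -0.07 to 0.24 (median 0.15). In iPSC-34 it had 0.40, against 0.00 and 0.08. Sphk1, which makes the lipid signal sphingosine 1-phosphate, overlapped its group in all 3 clones. It had -1.22 in iPSC-2 among others from -1.42 to -1.17 (median -1.20), and -1.28 in iPSC-46 among others from -1.35 to -1.16 (median -1.25). In iPSC-34 it was -0.94, between -1.23 in iPSC-32 and -0.85 in iPSC-33. Jup, or plakoglobin, a junction protein related to beta-catenin, was the member that followed least. It had 2.65 in iPSC-2 among others from 2.06 to 2.78 (median 2.30), and 2.54 in iPSC-34 between 2.97 and 2.45. In iPSC-46 it had 2.65, below all 5 others at 2.67 to 3.02 (median 2.80). Jup and Sphk1 are the 2 members that lay above all other lines of the group in none of the clones. Grn, the secreted growth factor progranulin, was above all others in each clone, with deviations of 0.36, 0.14 and 0.13. The second Grn probe set gave 0.45, -0.065 and 0.17.

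Genes of DNA metabolism and division differed widely in how they followed. Brca1, needed for repair of double-strand breaks, was 3.59 in iPSC-2, inside the range of the 5 others from 3.44 to 3.71 (median 3.59). It was 3.04, 3.38 and 3.65 in iPSC-32, iPSC-33 and iPSC-34. In iPSC-46 it was 3.73, above the others at 3.08 to 3.36 (median 3.24). Brca1 thus stood above its group in 2 clones and not in iPSC-2, with deviations of 0.00, 0.44 and 0.50. Its second probe set by signal gave -0.12, 0.54 and 0.28.

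Cdc27, a subunit of the anaphase-promoting complex, had -1.29 in iPSC-2, above the 5 others at -1.99 to -1.67 (median -1.80). In iPSC-34 it had -1.28, against -1.41 in iPSC-32 and -2.15 in iPSC-33. In iPSC-46 it had -1.56, inside the range of the others from -1.80 to -1.45 (median -1.69). Its deviations were 0.52, 0.51 and 0.08, so it stood out in iPSC-2, where Brca1 did not, and not in iPSC-46, where Brca1 did. Tk1, the thymidine kinase of S phase, did not stand out in iPSC-2 or iPSC-46. It had 2.65 in iPSC-2 among others from 2.36 to 3.04 (median 2.54), and 2.62 in iPSC-46 among others from 2.44 to 2.73 (median 2.51). In iPSC-34 it was 2.87, just above 2.81 and 2.54.

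Tbcd, a chaperone that folds tubulin, closes the interval and was high in every clone. It was 2.49 in iPSC-2, against 1.98 to 2.25 (median 2.06), and 2.74 in iPSC-46, against 2.03 to 2.24 (median 2.08). In iPSC-32, iPSC-33 and iPSC-34 it was 2.06, 2.24 and 2.59. These 3 clones had the 3 highest Tbcd signals of the 59 lines, and iPSC-22 came next at 2.42.

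The neighbouring nucleoside diphosphate kinases Nme1 and Nme2 share much of their sequence, so their probe sets may not be wholly separate. Nme1 was 4.66 in iPSC-2, against 4.17 to 4.54 (median 4.24), and 5.22 in iPSC-46, against 4.70 to 4.86 (median 4.81). The PF-derived clones iPSC-32, iPSC-33 and iPSC-34 had 4.77, 4.91 and 5.15. Nme1 was thus above its group in each clone, by 0.36, 0.31 and 0.43. Its second, dimmer probe set gave 0.27, -0.12 and 0.37, so in iPSC-34 the direction depends on the probe set. Nme2 was 5.83 in iPSC-2, against 5.65 to 5.79 (median 5.77), and 5.80 in iPSC-46, against 5.67 to 5.74 (median 5.68). In iPSC-32, iPSC-33 and iPSC-34 it was 5.67, 5.62 and 5.78. It too was above all others of the group each time, but by only 0.09, 0.14 and 0.11.

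Among chromatin genes, Smarce1, a subunit of the BAF remodelling complex, was 4.56 in iPSC-2, against 3.96 to 4.23 (median 4.11). In iPSC-32, iPSC-33 and iPSC-34 it was 3.75, 3.95 and 4.50. In iPSC-46 it was 4.54, against 3.98 to 4.16 (median 4.10). The 3 clones had the 3 highest Smarce1 signals of all lines, with iPSC-39 next at 4.32. Its second probe set gave deviations of 0.40, 0.34 and 0.24.

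Smarcd2, another BAF subunit, deviated by 0.34, 0.03 and 0.54. Cbx1, which codes for the heterochromatin protein HP1 beta, and H3f3b, which codes for the histone variant H3.3, were above all others in each clone. Their deviations were 0.27, 0.16 and 0.38 for Cbx1 and 0.31, 0.19 and 0.22 for H3f3b. The forkhead factor Foxk2 deviated by 0.26, 0.69 and 0.32, and the deacetylase Sirt7 by 0.44, 0.17 and 0.40. The dimmer Foxk2 probe sets gave 0.25 and 0.11 in iPSC-34 and 0.195 and -0.04 in iPSC-46. Pcgf2, of Polycomb complexes, stood out in iPSC-34, with 0.03, 0.45 and 0.17. Its second probe set gave 0.17, 0.60 and -0.14. Of the Mediator subunits, which link transcription factors to RNA polymerase, Med1 had 0.21, 0.42 and 0.09 and Med24 had 0.23, 0.23 and 0.40.

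Protein turnover and secretion genes included Nfe2l1, the transcription factor that induces proteasome genes. It was 3.37 in iPSC-2, against 2.55 to 2.95 (median 2.70), and 3.31 in iPSC-46, against 2.81 to 3.00 (median 2.87). Among PF-derived clones, iPSC-34 had 3.12, iPSC-32 2.91 and iPSC-33 2.85. Nfe2l1 was above all others of the group in each clone. The proteasome subunits deviated by 0.42, 0.23 and 0.50 (Psmd3), by 0.18, 0.31 and 0.38 (Psmd12), by 0.12, 0.40 and 0.35 (Psmc5) and by 0.10, 0.21 and 0.34 (Psmb3). Nploc4, a cofactor of the p97 ATPase, deviated by 0.44, 0.29 and 0.32. The protein disulfide isomerase P4hb deviated by 0.38, 0.34 and 0.11.

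Genes of the ribosome and of RNA processing differed in size. Rpl23 and Rpl19, ribosomal proteins with strong signals, deviated by 0.09, 0.07 and 0.12 and by 0.11, 0.12 and 0.08. Small as these were, each was above all others of the group in all 3 clones. Their SD within groups, pooled over the other ESC and iPSC clones, was 0.029 and 0.033. The deviations belong to the contrast the members were chosen on, so nothing is read from setting them beside the SD. The dimmest Rpl23 probe set gave 0.27, -0.04 and 0.83, so in iPSC-34 the direction depends on the probe set. The helicase Dhx8 deviated by 0.35, 0.27 and 0.37, and the helicase Ddx5 by 0.20, -0.01 and 0.13. The splicing factor Srsf2 had its largest deviation in iPSC-2, with 0.37, 0.10 and 0.00. Its second probe set by signal gave 0.34, -0.15 and 0.01.

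Transport and cytoskeleton genes differed between clones. Kpna2, the importin alpha that carries nuclear cargo, was 4.63 in iPSC-2, just above the others at 4.25 to 4.62 (median 4.44). In iPSC-34 it was 4.18, below 4.22 and 4.26. In iPSC-46 it was 4.66, against 4.09 to 4.37 (median 4.19). Kpna2 thus lay below both reference lines in iPSC-34 and above all of them in iPSC-46.

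Its partner Kpnb1, importin beta, was 5.36 in iPSC-2, inside the range of the others from 4.69 to 5.37 (median 5.14). In iPSC-32, iPSC-33 and iPSC-34 it was 5.06, 4.98 and 5.10. In iPSC-46 it was 5.06, inside 4.86 to 5.17 (median 5.06). The other 3 Kpnb1 probe sets disagreed in iPSC-46, with deviations of 0.05, 0.51 and -0.03. Lasp1, an actin-binding adaptor, was 4.63 in iPSC-2, against 4.01 to 4.47 (median 4.27). In iPSC-32, iPSC-33 and iPSC-34 it was 4.38, 4.30 and 4.43, and in iPSC-46 it was 4.30, inside 4.16 to 4.33 (median 4.26).

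Lasp1 was thus above all others in iPSC-2 and iPSC-34 but not in iPSC-46, with deviations of 0.35, 0.09 and 0.04. Its second probe set by signal gave 0.43, -0.13 and -0.01, so in iPSC-34 the direction depends on the probe set. The cytoskeletal actin gene Actg1 deviated by 0.26, 0.17 and -0.02, and Exoc7, of the vesicle-tethering exocyst, by 0.40, 0.12 and 0.57. Sumo2, a ubiquitin-like modifier, deviated by 0.35, -0.10 and 0.24. Akap1, which anchors protein kinase A at mitochondria, deviated by 0.31, -0.35 and 0.14. By the brightest probe set, Akap1, Sumo2 and Kpna2 are the 3 members that lay below both reference lines in iPSC-34. The second probe sets of Akap1 and Sumo2 deviated by 0.30 and 0.18 there, so their direction depends on the probe set.

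By the brightest probe set, 4 members passed 0.3 in all 3 clones, 13 in 2, 15 in 1 and 10 in none. The 4 were Stat5b, Smarce1, Tbcd and Nme1. The 10 were Myo19, Nme2, Kpnb1, Rpl23, Rpl19, Jup, Ddx5, Sphk1, Tk1 and Actg1. By rank, 20 members lay above every other line of the group in all 3 clones, 15 in 2, 5 in 1 and 2 in none. Those 20 are 47.6% of the members, and the same held for 3.46% of all genes, 27.1% of the other interval genes and 45.3% of those with a mean above 0. Passing 0.3 in all 3 clones held for 61 of the 406 other interval genes (15.0%), for 4 of the 545 on the rest of the chromosome and for 111 of 10795 elsewhere (1.03%). Which members moved most was only loosely alike between clones. Over the 42 members, the deviations of iPSC-2 and iPSC-34 had a Pearson r of 0.14, those of iPSC-2 and iPSC-46 0.39, and those of iPSC-34 and iPSC-46 0.40. These are across genes, which share arrays and chromosome neighbours.

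Among interval genes with a mean above 0, the brightest had the smallest median deviations. Over all 448 interval genes, members included, the 104 with a mean signal from 0 to 2 had medians of 0.36, 0.34 and 0.39. The 12 with a mean above 5 had 0.14, 0.11 and 0.12. The 8 members above 5, among them Nme2, Rpl23, Rpl19, H3f3b and Kpnb1, had medians of 0.15, 0.13 and 0.11. Whether the arrays compress high signals was not tested. Interval genes with a mean below 0 had lower medians still in 2 clones, 0.03 and 0.05 in iPSC-2 and iPSC-46, and 0.23 in iPSC-34.

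**Figure D3:**
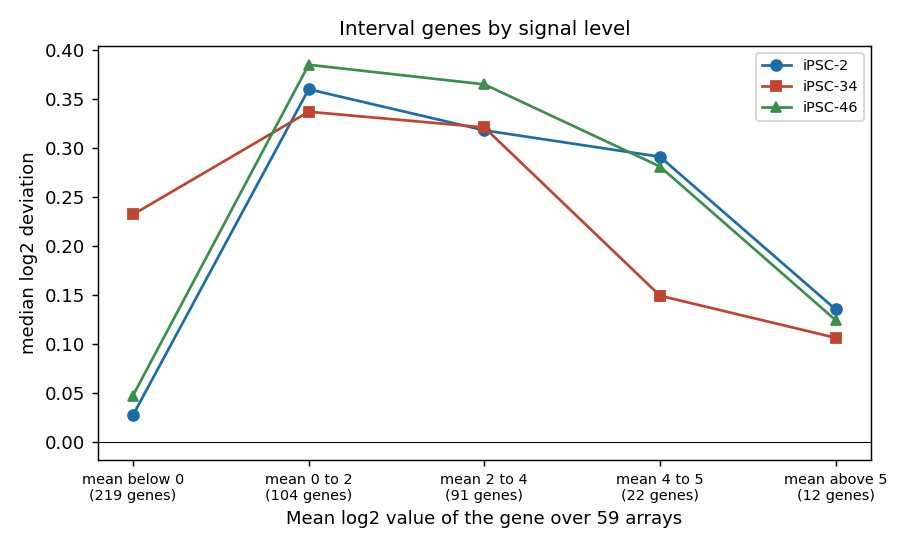
Median log2 deviation in iPSC-2, iPSC-34 and iPSC-46 of the interval's genes, members included, in 5 classes of mean log2 signal over 59 arrays, with the number of genes under each class. Medians are highest, 0.34 to 0.39, for means from 0 to 2 and lowest among the classes above 0, at 0.11 to 0.14, for means above 5.

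Several members are subunits of complexes whose other subunits are coded elsewhere, and those others had medians near or below 0. The interval was chosen for high values in these clones, so a gap is built in and nothing is read from it. The 4 proteasome members had median deviations of 0.15, 0.27 and 0.37 in iPSC-2, iPSC-34 and iPSC-46, and the 24 listed subunits on other chromosomes had -0.06, -0.01 and 0.06, with none past 0.3 upward. Psmc4 passed it downward in iPSC-2 (-0.37), as did Psmb5, on chromosome 14, in iPSC-46 (-0.82). The pair of proteasome genes elsewhere on chromosome 11 split by place. Psmd11, within the 27 genes between the splits, had -0.21, 0.39 and 0.30, and Psmb6, nearer the centromere, had -0.05, 0.29 and -0.10. For BAF, the 2 members had 0.41, 0.34 and 0.49, and the 8 subunits elsewhere -0.13, -0.19 and -0.17.

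Mediator, import and Polycomb genes were set side by side in the same way, without a test and with the same built-in gap. Med1 and Med24 had medians of 0.22, 0.32 and 0.24, against -0.07, -0.05 and -0.14 for 15 subunits elsewhere. The import receptors Kpna2 and Kpnb1 had 0.21, 0.01 and 0.24, against -0.01, 0.00 and -0.01 for 10 others, so they were level in iPSC-34. Pcgf2 and Cbx1 had 0.15, 0.30 and 0.28, against -0.09, -0.14 and -0.10 for 12 others. Cbx2, another Polycomb gene of the interval, had -0.13, -0.05 and 0.28. Suz12, a Polycomb gene lying between the splits, had 0.11, 0.14 and 0.73. The ribosomal members Rpl23 and Rpl19 had medians of 0.10 in each clone, against 0.06, -0.06 and 0.02 for 23 others.

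Markers of other cells moved with some of these values. Of 11 measured fibroblast and feeder markers, 8 passed 0.3 upward in iPSC-2, 8 in iPSC-46 and 0 in iPSC-34. Their mean log2 signal was 1.36 in iPSC-2 (others 0.28 to 1.25), 2.27 in iPSC-46 (others 1.54 to 2.07) and 2.28 in iPSC-34 (others 2.22 and 2.64). Col1a1, a marker on that list, lies in the interval and deviated by 0.66, 0.00 and 0.41. Of 9 differentiation markers, 5 passed 0.3 upward in iPSC-2 and 6 in iPSC-34, and 6 passed it downward in iPSC-46. Their mean was -0.29 in iPSC-2 (others -1.06 to -0.48), 0.13 in iPSC-34 (others -0.91 and 0.00) and -0.56 in iPSC-46 (others -0.32 to 0.03). The mean of 9 pluripotency markers was 4.48, 4.04 and 4.32 in iPSC-2, iPSC-34 and iPSC-46, below the lowest other line of each group at 4.56, 4.15 and 4.38. In RNA of whole cultures, more feeder cells and more marker RNA per cell cannot be told apart. The part of these markers in the members' values was not tested. The medians of the 18 other autosomes were taken over genes with a mean above 0. They lay from -0.05 to -0.01 in iPSC-2 and from -0.10 to -0.05 in iPSC-34. In iPSC-46 they lay from -0.03 to 0.04, apart from chromosome 14 at -0.53.

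No other line reached the members' median of the 3 clones. The mean log2 signal over the 42 members was 3.28 in iPSC-2, 3.21 in iPSC-34 and 3.27 in iPSC-46. Group means ran from 3.00 in PF-derived clones of mouse 1 to 3.07 in Adeno-2, apart from 2.76 in NT-7 and 2.85 in the NT-ESC from iPSC-15. The means of the groups of iPSC-2, iPSC-34 and iPSC-46, at 3.05, 3.06 and 3.06, include these clones themselves. Over the 53 other lines that are neither of the rule nor NT-ESC from iPSC clones, the members' median deviation ran from -0.12 in iPSC-5 to 0.07 in Adeno-2. With the 3 clones left out of the references, the lowest was -0.06, in iPSC-30. The most members past 0.3 in those 53 lines was 8, in iPSC-20, whose median was 0.02 and whose group has 2 lines.

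The NT-ESC from Adeno-2 stayed close to their donor in the median of these genes. NT-4, NT-5 and NT-6 had member medians of 0.00, 0.01 and -0.03 relative to Adeno-2, with 21, 22 and 18 of 42 members above 0. Past 0.3 upward were 7, 8 and 7 members, where 19.1%, 17.3% and 20.0% of all genes were. Single members differed: Tbcd was 2.15, 2.14 and 2.15 in NT-4, NT-5 and NT-6 and 2.15 in the donor. Jup was 2.46, 2.44 and 2.48 in these lines and 3.25 in the donor. NT-7 had a member median of -0.27 relative to iPSC-7, and NT-8 and NT-9 had -0.15 and -0.08 relative to iPSC-15. For genes of other chromosomes with a mean above 0, these 3 lines had -0.38, -0.31 and -0.16. Their arrays also had the smallest spread over genes, with SDs of 2.35, 2.38 and 2.47. Elsewhere the SDs ran from 2.535, in iPSC-34, to 2.64. Tk1 was lowest of all lines in these 3, with 1.63, 0.95 and 1.70, against 2.68 in iPSC-7 and 2.89 in iPSC-15. With 1 array per donor, these differences have no replicate check.

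**Figure D4:**
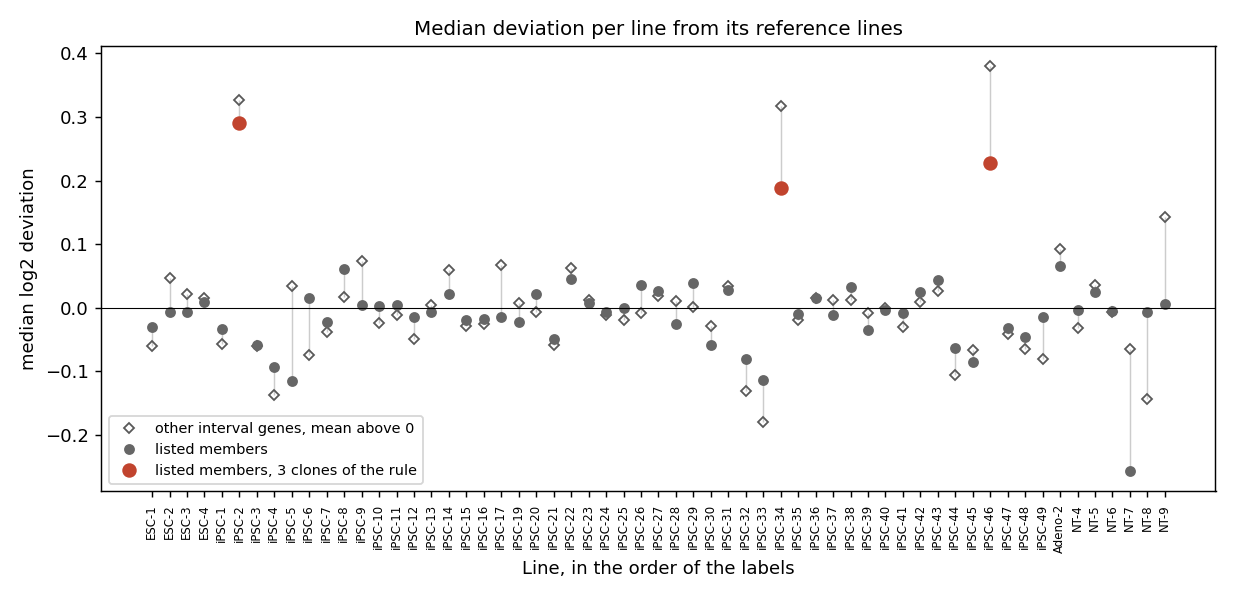
Median log2 deviation per line of the 42 members (filled) and of the 192 other interval genes with a mean above 0 (open), for 4 ESC, 48 iPSC, Adeno-2 and 6 NT-ESC lines, each against the other lines of its group or, for Adeno-2 and NT-7, against 45 iPSC clones. The 3 clones lie at 0.19 to 0.29, and no other line exceeds 0.07 for the members.

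Origin of the clones was the contrast that could be tested. It asks whether iPSC keep traces of their source cell in these genes. A limma fit with cell class and animal as terms compared 31 blood-derived (HSC, GMP and granulocyte) with 11 fibroblast-derived clones of mouse 1, mouse 2 and chimera 2, adjusted over all genes at 0.05. The 11 include iPSC-34 and iPSC-46, so a fit of the 40 clones without them is given beside it. Clones of an animal share that animal, and p-values measure the spread between clones.

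In the fit of 42 clones, 11 members were higher in blood-derived clones, where 28.1% of all genes were, and 13 were lower, where 21.6% were. Of 40 clones, 13 were higher, where 26.9% of all genes were, and 7 were lower, where 19.4% were. The 7 lower without both clones were also lower with them, and so were all 11 of the higher. The members' shares were 26.2% higher and 31.0% lower with 42 clones, and 31.0% and 16.7% with 40. No test compared them with the background, and nothing is read from them. Without both clones the blood minus fibroblast difference moved upward in 40 of 42 members. Both are fibroblast-derived and were chosen for high values in the interval, so this move is built in and nothing is read from it. The count of lower members fell from 13 to 8 without iPSC-34 alone. Quantile normalization gave 10 higher and 18 lower. The share of all genes was not computed under either setting, so these counts have no background beside them.

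The 6 members lower only with the 2 clones were Rpl23, Psmd12, H3f3b, Actg1, Nploc4 and P4hb. Among them, H3f3b turned to 0.011 with the mean of a gene's probe sets and Psmd12 to 0.014 without chimera 2. With 1 mean per animal and cell class, 5 members were lower. In the fit of single clones, the largest difference of the 6 was that of Nploc4. It had 3.32 ± 0.09 (SD, n = 31) in blood-derived and 3.48 ± 0.16 (SD, n = 11) in fibroblast-derived clones. Its difference of -0.15 (adjusted p = 0.00365, limma) became -0.09 without the clones (adjusted p = 0.0574, limma). Smarce1 and Nme2 were called higher only without the clones. For Smarce1 the difference was -0.03 (SE 0.05) with them and 0.07 (SE 0.03, adjusted p = 0.0394, limma) without.

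The calls that held in both fits included most of the large differences. Stat5b averaged -0.57 ± 0.22 (SD, n = 31) in blood-derived and -0.97 ± 0.35 (SD, n = 11) in fibroblast-derived clones. The fitted difference was 0.48 (SE 0.08, adjusted p = 2.57e-06, limma) with iPSC-34 and iPSC-46 and 0.60 (SE 0.07, adjusted p = 1.75e-09, limma) without. Srsf2 averaged 4.32 ± 0.08 and 4.70 ± 0.11, and its difference was the largest in the other direction at -0.39 in both fits (adjusted p = 1.92e-12 and 2.69e-11, limma). Jup was lower in blood-derived clones, with a difference of -0.33 and, without the clones, -0.35 (adjusted p = 3.21e-07 and 3.78e-07, limma). Neither Srsf2 nor Jup had followed the shift in iPSC-46, and leaving the clones out moved their differences by 0.00 and -0.02.

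Higher in blood-derived clones in both fits were also the S-phase and repair genes Tk1 and Brca1, with differences of 0.23 and 0.18, and Kpna2 with 0.27. Med24, Smarcd2, Exoc7, Akap1 and Cbx1 were higher by 0.30, 0.24, 0.19, 0.23 and 0.19, and Sumo2 and Kpnb1 by 0.15 and 0.12. Lower in both fits were Nme1 and Erbb2, with differences of -0.26 each, Sphk1 with -0.22, Grn with -0.18 and Lasp1 with -0.13. For Brca1 the difference was 0.26 without the clones, and for Nme1 it was -0.19. The mean of a gene's probe sets in place of the brightest turned Kpnb1 to -0.12 (adjusted p = 0.00115, limma), so its direction depends on the probe set.

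**Figure D5:**
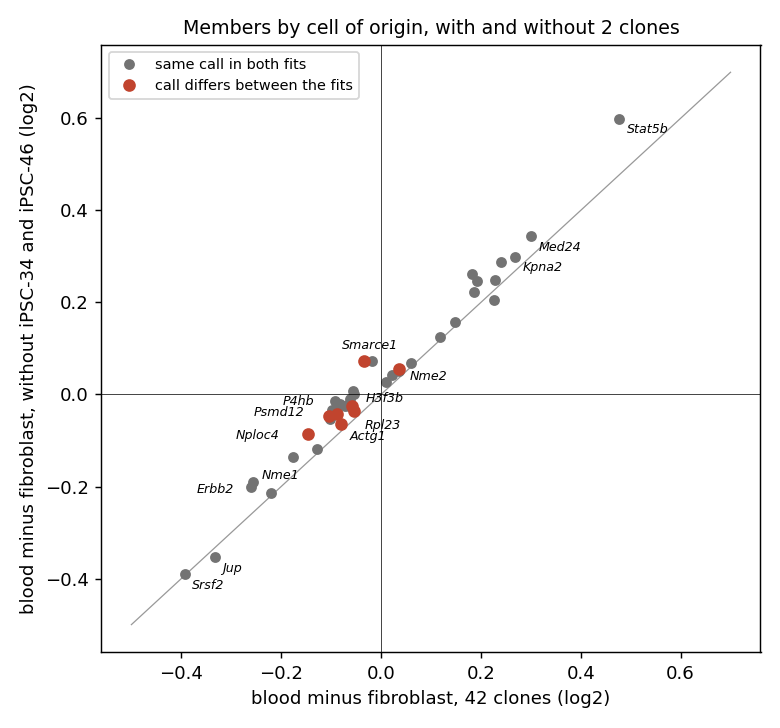
Blood minus fibroblast log2 difference of each of the 42 members with 42 clones (x axis) and with the 40 clones that leave out iPSC-34 and iPSC-46 (y axis), with the line of equality, and red where the call differs. Most points, 40 of 42, lie above the line, a move that the choice of both clones builds in. Stat5b goes from 0.48 to 0.60, and the 8 red points lie between -0.15 and 0.04 on the x axis.

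The counts of the other interval genes also went up for higher and down for lower calls. The choice of iPSC-34 and iPSC-46 for high values in the interval builds this in as well. Among the 406 others, 78 were higher and 120 lower in blood-derived clones with all 42, and 103 and 83 without iPSC-34 and iPSC-46. On other chromosomes the counts were 3090 and 2295, and 2903 and 2104.

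Genes outside the list whose deviation most resembled the members' mean over the 59 lines were largely their neighbours. Of the 50 non-members with the highest correlation, r from 0.64 to 0.80, 30 lie in the interval and 34 on chromosome 11. The top 10 were Coa3, Mrpl10, Retreg3, Mrpl27, Tom1l1, Cnp, Bloc1s6, Aspscr1, Tubg1 and Mlx. All but Bloc1s6, on chromosome 2, are in the interval. Of the 11807 measured genes, 406 are other genes of the interval. These correlations include the 3 clones, which were chosen for high values in the interval. A lead of interval genes is therefore built in, and nothing is read from it. They are descriptions over lines that share groups. Coa3, an assembly factor of cytochrome oxidase, deviated by 0.36, 0.51 and 0.64.

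Some neighbours with a clear signal lay below their group. Among 95 other interval genes with a mean above 2, the smallest median deviation was that of Pitpnc1, a phosphatidylinositol transfer protein, with -0.35, -0.80 and -0.32. It was followed by Tnrc6c (-0.16, 0.08 and -0.42), Ubtf (-0.01, -0.13 and -0.30) and Nsf (-0.10, -0.49 and 0.31). The splicing genes Srsf1 and Luc7l3 had 0.14, -0.06 and 0.03, and 0.13, 0.04 and 0.03. Both are also among the 6 brightest, with Rpl27 (0.13, 0.09 and 0.11), Atp5h (0.19, 0.01 and 0.24), Ramp2 (0.07, -0.26 and 0.34) and Top2a (0.14, 0.19 and 0.40). Of these, Rpl27, Atp5h, Top2a and Luc7l3 lay above 0 in all 3 clones.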

How the data were processed

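Per the labels, biotinylated cRNA from total RNA of 59 lines was hybridised to Affymetrix arrays. The deposited series values are log2 signals from -4.83 to 6.97, with each array's mean near 0. That they are base-2 logarithms was judged from their range. How background was corrected and probes summarised is not given in the sources used here. Precision is limited by 1 array per line.

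Of 22626 probe sets, 18003 had 1 gene in the platform table, 287 several and 4336 none. The brightest probe set, by mean over all lines, stood for each of 11807 genes, and symbols and order came from assembly GRCm38.p6. Deviations were taken from the mean of the other lines of a group. A line alone in its group was set against 45 iPSC clones without iPSC-2, iPSC-34 and iPSC-46. For the split, deviations were limited to 1 log2 unit either way.

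Origin was compared with limma 3.58.1 in R 4.3.3 (lmFit, eBayes, 2-sided, Benjamini-Hochberg over all genes). The script was tested on simulated data. Members, lists and tests were chosen with earlier results of these data known. Full values are given for the 6 members with the largest and 6 with the smallest median deviation and for Tk1, Brca1, Grb2, Rara, Stat5b, Kpna2, Nme1 and Nme2. Other genes named are the 3 next to the interval's end, its 6 brightest and 6 least deviating, and the 10 best correlated. Psmd11, Psmb6, Psmc4, Psmb5, Suz12, Cbx2, Col1a1, Pou5f1, Sox2 and Nanog, from the lists, were named after their values were seen. Alternatives covered normalization, filter, probe sets, references, clones and animals.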

Additional observations from a re-analysis of the deposited data

Results flagged for a closer look

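Within groups of 4 to 10 lines, 119 sets of values (the members' mean signal and the 16 members with full values, over 7 groups) were searched for a line far from the others, and 12 were found, where chance finds about 1 in 20. The members' mean log2 signal was 3.28 in iPSC-2 (others 2.96 to 3.03) and 3.27 in iPSC-46 (others 2.99 to 3.04). In iPSC-46, Smarce1 was 4.54 (others 3.98 to 4.16), Tbcd 2.74 (others 2.03 to 2.24) and Nme1 5.22 (others 4.70 to 4.86). These belong to the contrast the members were chosen on.

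The other 7 sets of values concern 6 lines, none of them among the 3 clones. Brca1 was 3.09 in ESC-1, with the other ESC at 3.70 to 3.75. Kpnb1 was 4.69 in iPSC-5, with the other MEF-derived clones at 5.13 to 5.37. Among HSC-derived clones of mouse 1, iPSC-9 had 4.04 for Lasp1 (others 4.27 to 4.32) and 4.40 for Kpna2 (others 4.58 to 4.59), and iPSC-7 had 2.84 for Grb2 (others 3.07 to 3.09). Jup was 2.48 in iPSC-24, with the other HSC-derived clones of mouse 2 at 2.12 to 2.16. Smarce1 was 3.80 in iPSC-11, with the other GMP-derived clones of mouse 1 at 3.79, a gap that stands out only because those agree closely.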

How the results depend on the processing

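Most results kept their direction and their side of the threshold under the alternatives run. The median deviation was 0.228 in iPSC-2 against 45 other iPSC clones, 0.25 in iPSC-34 and 0.20 in iPSC-46 with arrays centred off chromosome 11, and 0.178 in iPSC-46 with every probe set on its own. Leaving out each other line in turn gave 0.20 to 0.25 in iPSC-46. At a threshold of 0.4, members past it were 8 in iPSC-2, 8 in iPSC-34 and 11 in iPSC-46, and at 0.2 they were 20 in iPSC-34. The share of all genes was not computed at either threshold. The lowest member median in other lines was -0.058 with the 3 clones left out of the references, a setting chosen after seeing the data. By origin, 24 members were called with 42 clones, 13 without mouse 2 and 14 with 1 mean per animal and cell class. Lower members were 7 without iPSC-34 and iPSC-46, 5 without mouse 2, 8 without chimera 2 and 5 with 1 mean per animal and class, and 8 to 16 with each clone left out. Higher members were 7 with the mean of probe sets. Reversed were Kpnb1 (-0.12) and H3f3b (0.011) with the mean of probe sets, and Psmd12 (0.014) without chimera 2. The causes were not tested, and fits without an animal hold fewer clones. Shares of all genes by origin were computed only for the fits of 42 and of 40 clones. The call of H3f3b changed in 23 of 53 alternatives and that of Sumo2 in 13. No paired analysis was possible because clone numbers name separate lines and pair no clones across origins.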
